A study of Mus musculus and synthetic construct with 33 samples.

Results

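The 8 T-box transcription factor genes Tbx1, Tbx2, Tbx3, Tbx4, Tbx5, Tbx15, Tbx18 and Tbx20 and the homeobox gene Pitx1 were followed in 4 organs of mouse embryos. They were found by gene symbol, 1 gene identifier per symbol, and made up 9 of the 26754 genes listed. They were picked as markers of hindlimb, heart and lung territories, so their levels across organs are given as a description. RNA of wild-type (WT) and mutant (KO) embryos of the strain Trp53cor1tm1.1Vlcg was sequenced at E14.5, in mid-gestation, to compare the organ transcriptomes by genotype. The mutation is in Trp53cor1, the gene of the long noncoding RNA linc-p21, and was carried on the background 129S6/C57BL/6 (N3, no Neo), which both genotypes share. Heart, hindlimb and lung had 3 WT and 3 KO libraries each, with 2 males in every group. Liver had 5 WT libraries, 4 of them male, and 4 KO libraries, 3 of them male. The 27 libraries came from 17 embryos of 7 litters, so one embryo could give several organs, and comparisons were made within an organ.

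T-box factors bind DNA through a shared domain, and their dose matters: loss of 1 copy of several of them causes malformation. In the limb, Pitx1 is made in the hindlimb and not the forelimb and acts upstream of Tbx4, while Tbx5 is the forelimb counterpart of Tbx4. In the lung, Tbx4 and Tbx5 act in the mesenchyme that signals to the branching epithelium, and in the heart Tbx5 and Tbx20 work with Gata4 and Nkx2-5.

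The deposited tables hold 1 FPKM value per gene, organ and genotype (fragments per length of transcript and size of library), pooled over the libraries of that genotype, so no spread between embryos accompanies a level and read depth is unknown. The fold changes, p-values and q-values are the authors' own. The p-values and q-values rest on the spread as the authors' test estimated it, and that spread is not given. A gene counted as called at a q-value under 0.05, and "rose" and "fell" are used of called genes alone. The targeted gene fitted its labels: Trp53cor1 was at 0.852 FPKM in WT heart and 0.710 in WT hindlimb and was listed at 0 in KO heart and hindlimb, with 0.0351 and 0 in liver and 0.104 and 0.00505 in lung, where it was not tested. Each organ carried its own markers in WT, such as Myl2 at 10103 and Tnnt2 at 4356 FPKM in heart, Alb at 10195 and Afp at 8915 in liver, Sftpc at 630 and Nkx2-1 at 58.6 in lung, and Col2a1 at 200 and Mylpf at 642 in hindlimb. Id2, the second most abundant gene of the lung epithelium list at 147 FPKM in WT lung, did not mark lung, with 70.6 to 99.2 in the other organs. The WT lung pool also held heart muscle transcripts, with Myl7 at 342 FPKM and Tnnt2 at 108. In KO lung these were at 13.6 and 4.58 FPKM.

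In the authors' mm10 annotation, 4 of the 9 genes lie in neighbouring pairs. Tbx2 (ENSMUSG00000000093.6, chr11:85832551-85841948) and Tbx4 (ENSMUSG00000000094.6, chr11:85886422-85916097) are 44473 bases apart on the plus strand. Tbx3 (ENSMUSG00000018604.12, chr5:119670669-119684724) and Tbx5 (ENSMUSG00000018263.8, chr5:119834663-119885218) are 149938 bases apart, also on the plus strand. Tbx15 (ENSMUSG00000027868.5, chr3:99240381-99354259) is on the plus strand. On the minus strand are Tbx1 (ENSMUSG00000009097.9, chr16:18581713-18586969), Tbx18 (ENSMUSG00000032419.7, chr9:87702800-87731260), Tbx20 (ENSMUSG00000031965.8, chr9:24720812-24774303) and Pitx1 (ENSMUSG00000021506.7, chr13:55825051-55836192). All 9 are protein-coding genes. Values are given per gene, and how the transcripts of a gene were combined is not stated in the sources used.

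Promoter windows from RefSeq (build GRCm38.p6, 250 bases before to 50 after a start) matched 4 of the 9 genes: Tbx1, Tbx4, Tbx18 and Tbx20. Those of Tbx20 and Tbx18 are printed because these were the 2 genes with the lowest KO-to-WT ratios among those tested in lung. Their RefSeq start is also the start in the authors' annotation, while those of Tbx4 and Tbx1 differ from it by 10343 bases and by 1930 and 3702 bases. Windows of Nppa, which encodes the atrial natriuretic peptide, and Ankrd1, a muscle ankyrin-repeat protein, are printed beside them as heart genes whose window holds the T-box motif GGTGTGA, here in capitals as read 5′ to 3′ on the gene's strand. In Nppa it is on the opposite strand.
Tbx20 (chr9:24774254-24774553, minus strand): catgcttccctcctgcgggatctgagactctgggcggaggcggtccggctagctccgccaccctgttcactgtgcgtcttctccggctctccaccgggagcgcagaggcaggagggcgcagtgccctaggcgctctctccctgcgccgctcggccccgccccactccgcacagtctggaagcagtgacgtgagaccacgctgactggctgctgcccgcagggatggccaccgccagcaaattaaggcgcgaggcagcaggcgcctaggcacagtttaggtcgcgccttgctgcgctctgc
Tbx18 (chr9:87731211-87731510, minus strand): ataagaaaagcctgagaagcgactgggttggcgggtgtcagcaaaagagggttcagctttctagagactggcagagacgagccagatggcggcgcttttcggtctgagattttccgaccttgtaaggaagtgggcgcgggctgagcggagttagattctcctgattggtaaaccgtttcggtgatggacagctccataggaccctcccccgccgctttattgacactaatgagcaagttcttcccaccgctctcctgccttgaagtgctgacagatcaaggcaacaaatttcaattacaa
Nppa (chr4:148000472-148000771, plus strand): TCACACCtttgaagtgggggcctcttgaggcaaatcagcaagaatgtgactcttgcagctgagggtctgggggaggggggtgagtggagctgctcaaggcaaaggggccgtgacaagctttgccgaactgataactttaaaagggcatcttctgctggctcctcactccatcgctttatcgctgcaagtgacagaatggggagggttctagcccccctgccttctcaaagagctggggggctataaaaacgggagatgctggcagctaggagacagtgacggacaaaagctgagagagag
Ankrd1 (chr19:36119795-36120094, minus strand): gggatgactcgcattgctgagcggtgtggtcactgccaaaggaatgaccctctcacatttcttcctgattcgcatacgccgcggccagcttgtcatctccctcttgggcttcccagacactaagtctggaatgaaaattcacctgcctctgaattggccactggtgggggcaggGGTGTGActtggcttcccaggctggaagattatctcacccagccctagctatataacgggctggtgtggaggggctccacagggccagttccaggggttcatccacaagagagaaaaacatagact
The Tbx20 window was CpG-rich, with 68.3% GC and 26 CpG dinucleotides against medians of 52.7% and 7 over all 32851 windows. The Tbx18 window had 51.7% GC and 15 CpG dinucleotides. On both strands, the T-box motif was found in 3.98% and the Pitx motif TAATCC in 7.06% of all windows. Neither was found in the windows of the 4 matched genes. Counted by gene, 4.60% of all genes with a window held the T-box motif in at least 1. Among the lists it was held by 4 of 16 cardiomyocyte markers (Ankrd1, Mybpc3, Nppa and Tnni3), 2 of 8 skeletal muscle markers, 1 of 13 cardiac partners, 1 of 6 cartilage markers, 1 of 5 lung epithelium markers and 0 of 21 limb field genes, and by none in the other 8 lists. A match describes letters in a window and not a bound site.

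Lung held the highest level of 5 of the 9 genes. The tables of the organs were normalized separately, so levels set across organs are a description without a test, and which neighbours in an order differ beyond their spread cannot be said. Tbx2, a repressor that keeps lung mesenchyme cells dividing, was at 92.6 FPKM in WT lung, 7.55 in hindlimb, 3.70 in heart and 1.10 in liver. Its KO levels were 96.9, 8.50, 3.38 and 1.38 FPKM in the same order. Lung was thus 12.3-fold above the next organ in WT and 11.4-fold in KO. Tbx3, its closest relative, had WT levels of 23.6 FPKM in lung, 6.29 in hindlimb, 3.05 in heart and 2.33 in liver, and KO levels of 26.3, 6.56, 2.85 and 1.97 FPKM. The organ order of Tbx3 was that of Tbx2 but its range was narrower, with a 10.1-fold distance from highest to lowest organ in WT against 84.2-fold for Tbx2. Liver was the organ where Tbx3, known there for its part in liver bud outgrowth, was above Tbx2, with a Tbx2-to-Tbx3 ratio of 0.472 in WT and 0.704 in KO against 3.92 and 3.68 in lung.

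Tbx4 was a gene of 2 organs. It was at 63.5 FPKM in WT lung and 63.9 in KO lung, and at 19.3 FPKM in WT and 24.01 in KO hindlimb. In heart it was at 0.0915 FPKM in WT and 0.121 in KO, and in liver at 0.0623 and 0.0858 FPKM. Hindlimb was 211-fold above heart, the third organ, in WT. Tbx5 was at 33.1 FPKM in WT lung and 33.3 in KO lung, 12.0 and 10.7 in heart, 1.86 and 2.09 in hindlimb, and 0.0504 and 0.101 in liver. The ratio of Tbx4 to Tbx5 therefore turned with the organ: it was 10.3 in WT and 11.5 in KO hindlimb, 1.92 in lung of both genotypes, and in heart Tbx5 was the higher by 132-fold in WT and 88.2-fold in KO. Tbx1, best known for the pharyngeal arches and the cardiac outflow tract, was lowest of the 5 in lung, at 5.15 FPKM in WT and 5.69 in KO. Hindlimb followed at 2.95 and 2.84 FPKM, and Tbx1 was at 0.111 and 0.140 FPKM in heart and at 0.00318 and 0.0118 in liver.

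Hindlimb was led by Pitx1 and Tbx15. Pitx1 was at 65.2 FPKM in WT hindlimb and 91.4 in KO, while its other WT levels were 0.173 in liver, 0.151 in heart and 0.0913 in lung. WT hindlimb was 377-fold above the next organ. Its KO levels outside the limb were 1.19 FPKM in liver, 0.0375 in heart and 0.0825 in lung. Tbx15, which acts in limb and skin mesenchyme, was at 46.4 FPKM in WT and 50.6 in KO hindlimb. Elsewhere Tbx15 had WT levels of 0.430 FPKM in lung, 0.201 in heart and 0.0360 in liver, and KO levels of 0.150, 0.129 and 0.0253. Hindlimb thus held 98.6% of the summed WT level of Tbx15 and 99.4% of that of Pitx1 over the 4 organs. The hindlimb order Pitx1, Tbx15, Tbx4, Tbx18, Tbx2, Tbx3, Tbx1, Tbx5, Tbx20 was identical in WT and KO, and 8 of the 9 genes reached 1 FPKM in both genotypes.

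Heart was led by Tbx20, a regulator of chamber and valve formation, at 93.1 FPKM in WT and 79.9 in KO. Its level was 7.35-fold above that of the next gene in WT heart, Tbx18, and WT heart was 45.8-fold above WT lung. Outside the heart Tbx20 was at 2.03 FPKM in WT and 0.335 in KO lung, 1.09 and 1.13 in liver, and 0.0118 and 0.0150 in hindlimb. Tbx18 is made in the epicardium and sinus node and in limb mesenchyme. It was nearly level between heart and hindlimb in WT, at 12.7 FPKM in each, with 12.1 and 15.7 in KO. The hindlimb-to-heart fold for Tbx18 in WT was 1.004, and with levels scaled by the median of ratios heart was the higher by 1.10-fold. Tbx18 was at 1.03 FPKM in WT and 0.572 in KO lung, and at 0.0383 and 0.0652 in liver. Of the 9 genes, 5 reached 1 FPKM in heart of both genotypes, and the sum over all 9 was 125 FPKM in WT and 109 in KO.

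**Figure D1:**
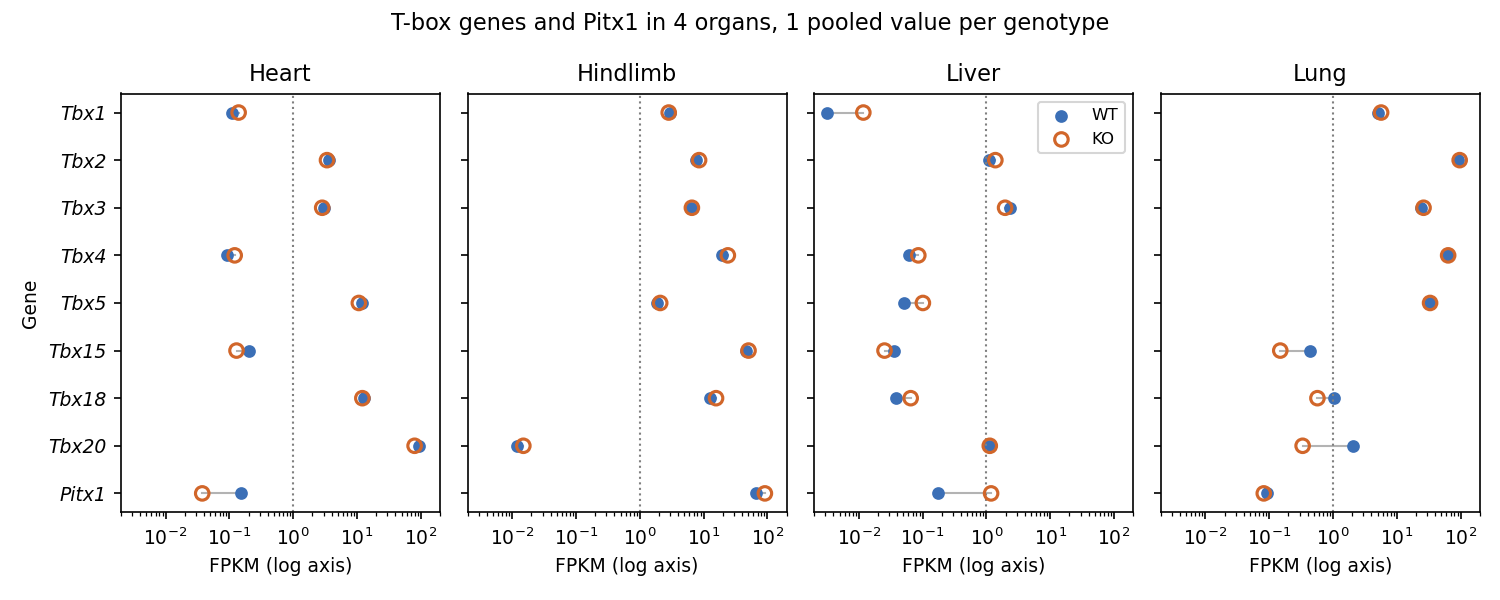
Pooled FPKM (log axis) of the 9 genes in each organ, with filled circles for WT and open circles for KO, 1 value per genotype and no error bars; the dotted line marks 1 FPKM. Most pairs overlap, while Tbx20 in lung lies at 2.03 in WT and 0.335 in KO and Pitx1 in liver at 0.173 and 1.19.

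Between genotypes, 1 of the 24 tested values of these genes passed the threshold, Tbx20 in lung. The genes tested by the authors numbered 8 of 9 for hindlimb, 7 for lung, 5 for heart and 4 for liver, and the others had at most 0.430 FPKM in the organ concerned. In heart 0 of 5 tested genes were called, against 0.228% of all genes tested, and 0 had an unadjusted p under 0.05, against 2.95% of all. In hindlimb 0 of 8 were called against 0.623% of all, and 3 had a p under 0.05 against 5.97%. In liver 0 of 4 were called against 0.406%, and 0 had a p under 0.05 against 2.79%. In lung 1 of 7 was called against 0.707%, and 2 had a p under 0.05 against 4.68%. The organ order of FPKM levels was the same in KO as in WT for 7 of the 9 genes, with Pitx1 and Tbx20 the exceptions. For Pitx1 the exchange was between heart and lung, at 0.0375 to 0.151 FPKM and not tested. With levels scaled by the median of ratios, Tbx15 and Tbx18 also changed order.

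**Figure D2:**
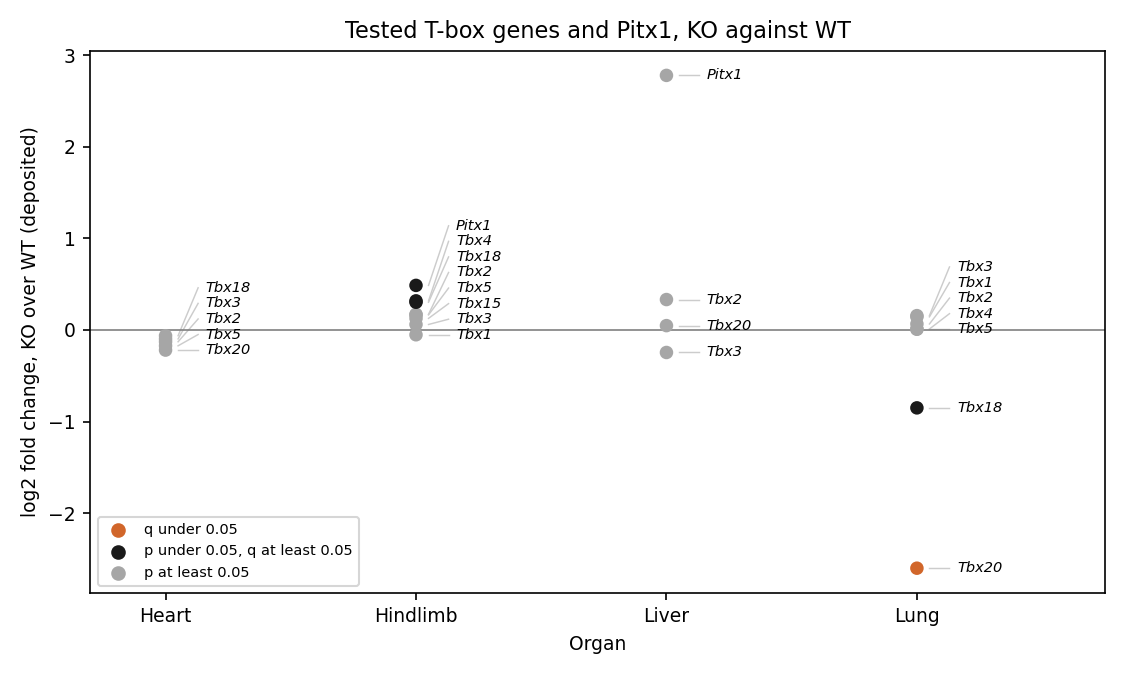
Log2 fold change of KO over WT from the authors' deposited tables for each tested gene (1 point per gene, named beside it) in the 4 organs; point shade gives the p and q class. Tbx20 in lung, at -2.60, is the single point with q under 0.05, and the 5 heart points all lie below 0.

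In heart the 5 tested genes had lower KO than WT levels by small amounts, and 0 passed the test. In the authors' deposited table the log2 fold changes were -0.22 for Tbx20 (p = 0.222), -0.17 for Tbx5 (p = 0.253), -0.13 for Tbx2, -0.10 for Tbx3 and -0.06 for Tbx18. Their median was -0.13 against -0.01 over all tested heart genes, of which 47.1% were higher in KO. Of the 19 cardiac partners and targets of these factors, all tested in heart, 0 were called, 0 had a p under 0.05, and their median log2 fold change was -0.02. Nppa was at 770 FPKM in WT and 702 in KO heart, Gja1, a gap junction protein, at 199 and 201, and Nppb, a second natriuretic peptide, at 190 and 179. Of 17 cardiomyocyte markers 0 were called and 4 had a p under 0.05 (Myh6, Myl7, Sln and Ryr2), these 4 with lower KO levels. The list as a whole was split, with 8 higher and 9 lower in KO. Its summed level was 31242 FPKM in WT and 32583 in KO, and Myl2 was at 10103 and 11408. Liver and red cell transcripts moved in the same comparison: 2 of 4 tested liver markers and 2 of 7 erythroid markers fell, and their part in the heart values was not tested.

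In hindlimb, 7 of the 8 tested genes had the higher level in KO, and none was called. Litter and genotype overlapped there: 1 litter was shared, which gave 1 of the 3 WT and 2 of the 3 KO libraries, so in these pooled values they cannot be told apart. In heart and lung every library came from a litter with both genotypes. Pitx1 had the largest difference, 65.2 FPKM in WT and 91.4 in KO, a fold of 1.40, with a log2 fold change of 0.49, p = 0.0033 and q = 0.199 in the authors' deposited table. Tbx4, its target, had a log2 fold change of 0.32 in the authors' deposited table (p = 0.0233, q = 0.592), and Tbx18 had 0.30 (p = 0.0361, q = 0.725). The other 5 lay between -0.05 for Tbx1 and 0.17 for Tbx2, with Tbx15, the second most abundant, at 0.13 (p = 0.414 in the authors' deposited table). The median of the 8 was 0.17 against 0.01 over all tested hindlimb genes, of which 52.4% were higher in KO. The summed level of the 9 genes was 162 FPKM in WT and 202 in KO. In bulk tissue, fewer cells of a type and less RNA per cell cannot be told apart.

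Among genes of the limb field and its outgrowth, 24 of 28 tested were higher in KO hindlimb, with a median log2 fold change of 0.37, but 1 was called. Sall1, a zinc finger factor of limb and kidney, was at 3.85 FPKM in WT and rose to 6.61 in KO, with a log2 fold change of 0.78 and q = 0.0123 in the authors' deposited table. At an unadjusted p under 0.05 there were 13 higher and 1 lower. The 13 included Hoxa11, Hoxa13, Hoxc11, Hoxd10, Hoxd11 and Hoxd12, while Hoxc9, Hoxc10 and Hoxd13 of the list were not among them. Over all tested hindlimb genes 52.4% were higher in KO, 0.623% were called and 5.97% had such a p, 414 of these higher and 573 lower. Abundant members of the limb field list were Prrx1, a mesenchymal homeobox factor, and Shox2, a regulator of limb bone length. Prrx1 was at 90.3 and 105 FPKM (p = 0.215) and Shox2 at 54.6 and 71.4 (p = 0.0558, both in the authors' deposited table). Cell type markers moved in both directions in the same pools. Of cartilage markers, 1 of 10 rose, namely Sox9, the master factor of cartilage, at 12.7 FPKM in WT and 19.2 in KO (the authors' deposited q was 0.0123 in their table), and 8 of 10 were higher. Skeletal muscle markers fell in 4 of 11, bone markers in 4 of 6 and epidermis markers in 3 of 9, with median log2 fold changes of -0.59, -0.85 and -0.60. Summed marker levels were 474 FPKM in WT and 582 in KO for cartilage, 1654 and 1129 for skeletal muscle, 229 and 107 for bone, and 1160 and 865 for epidermis. Globin genes were among 3 of 7 erythroid markers that rose. How far this makeup bears on Pitx1 and the T-box values was not tested.

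**Figure D3:**
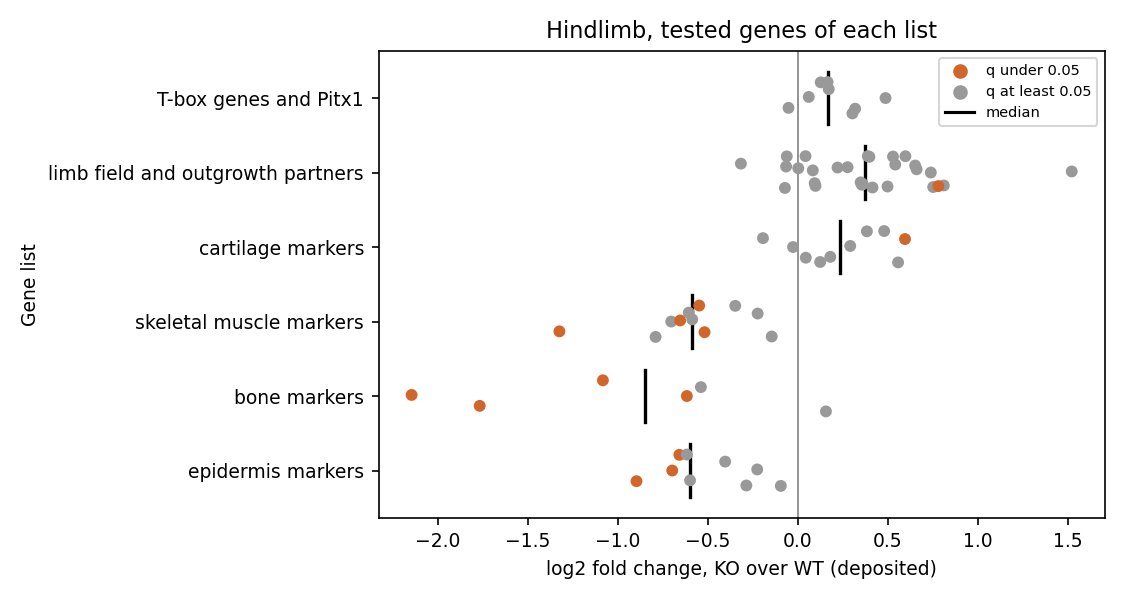
Log2 fold change of KO over WT in hindlimb, from the authors' deposited table, for the tested genes of 6 lists (1 point per gene, vertical position within a list is arbitrary, bar at the median). The T-box genes and Pitx1, the limb field genes and the cartilage markers have medians of 0.17, 0.37 and 0.23, while muscle, bone and epidermis markers have medians of -0.59, -0.85 and -0.60.

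In liver the 9 genes summed to 4.89 FPKM in WT and 5.96 in KO, and none of the 4 tested was called. Tbx3, the highest, had a log2 fold change of -0.25 (p = 0.298) in the authors' deposited table, Tbx2 of 0.33 (p = 0.178) and Tbx20 of 0.05. Pitx1 stood apart in size, at 0.173 FPKM in WT and 1.19 in KO with a log2 fold change of 2.78, but its p was 0.236 in that table. Transcripts of surface epithelia differed in the same pools: Krt5, a basal keratin, rose from 0.388 to 1.61 FPKM and Krt15 from 0.243 to 2.07, so that 2 of 4 tested epidermis markers were called. The summed level of the 9 epidermis markers was 2.10 FPKM in WT and 5.52 in KO liver. The gastric and lung claudin Cldn18 was at 0.00251 and 0.688 FPKM (p = 0.198, the authors' deposited table). Such differences were not particular to epithelia. Higher in KO were 9 of 11 tested cardiomyocyte markers (1 called), 8 of 8 epicardium and mesothelium markers, 8 of 10 limb field genes and 5 of 6 cartilage markers. Skeletal muscle markers were lower in 5 of 6. Over all tested liver genes 49.1% were higher, but 43 of the 58 called genes were. The relation of these differences to the Pitx1 value was not tested.

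In lung, Tbx20 fell from 2.03 FPKM in WT to 0.335 in KO, a 6.07-fold difference. In the authors' deposited table its log2 fold change was -2.60 with p = 5e-05, the smallest p listed, and q = 0.00845. Tbx18 was at 1.03 and 0.572 FPKM, with a log2 fold change of -0.85 (p = 0.00135, q = 0.143) in the authors' deposited table. The 5 genes most abundant in lung had smaller differences: in the authors' deposited table the log2 fold changes were 0.07 for Tbx2 (p = 0.660), 0.01 for Tbx4 (p = 0.941), 0.01 for Tbx5 (p = 0.955), 0.16 for Tbx3 (p = 0.407) and 0.14 for Tbx1 (p = 0.462). The tables give no interval for these differences. Rescaling both lung pools to the same sum raised every lung log2 fold change by 0.13. Of the 104 genes called in lung, 91 were lower in KO.

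Heart muscle transcripts moved with Tbx20. Of 17 cardiomyocyte markers, all tested in lung, 13 fell and 17 had the lower level in KO, with a median log2 fold change of -4.48 in the authors' deposited table. Their summed level was 927 FPKM in WT lung and 40.9 in KO lung. In WT lung each marker was at 0.0136% to 89.7% of its WT heart level, with a median of 3.33%, and in KO lung at 0% to 2.41%, with a median of 0.105%. The WT share differed widely by gene: Sln was at 89.7%, Myl7 at 19.9% and Myh6 at 10.5%. By contrast, Myh7 was at 0.102%, Myl3 at 0.0805% and Myl2 at 0.0136%. The median is therefore that of a mixed list. Sln, at the top of the WT range, was also abundant in WT hindlimb, at 56.6 FPKM against 21.7 in WT heart. It therefore does not mark heart alone, and it was not called in lung (p = 0.147 in the authors' deposited table). Tbx20 was at 2.18% of its WT heart level in WT lung and at 0.360% in KO lung. These percentages set tables side by side that were normalized separately. Nppa was at 62.0 FPKM in WT lung and listed at 0 in KO lung (p = 0.122 in the authors' deposited table), and Ankrd1 fell from 19.9 to 0.307 FPKM. Among cardiac partners, 2 of 16 were called and both were lower: the pacemaker channel Hcn4 was at 1.20 and 0.503 FPKM, a log2 fold change of -1.26, and Bmp10, a growth factor of the heart wall, was at 0.981 FPKM and listed at 0, each with q = 0.00845 in the authors' deposited table. Hand2, a factor shared by limb and heart and the 1 called limb field gene of 13, fell from 1.04 to 0.177 FPKM. The part of these heart muscle transcripts in the Tbx20 value was not tested.

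Markers of lung epithelium and endothelium were not called in lung, while some of other lists fell. None of 7 tested lung epithelium markers was called and 0 had a p under 0.05, with Sftpc at 630 FPKM in WT and 636 in KO. Of the 14 lung bud partners of Tbx4 and Tbx5, 0 were called and 0 had a p under 0.05, with a median log2 fold change of 0.03. The highest of them were Fgfr2, the receptor of the branching signal Fgf10, at 74.8 and 78.8 FPKM, Foxf1, a mesenchymal forkhead factor, at 67.8 and 61.6, and Nkx2-1, the factor that marks lung epithelium, at 58.6 and 63.3. Of the markers of epicardium and mesothelium, which make Tbx18, 1 of 8 fell (Aldh1a2, a retinoic acid synthesis enzyme, at 34.5 and 23.3 FPKM, with a q of 0.0242 in the authors' deposited table) and 7 of 8 were lower. Their summed level was 255 FPKM in WT lung and 213 in KO. Skeletal muscle markers fell in 3 of 6 tested, liver markers in 2 of 3 and epidermis markers in 1 of 6, with median log2 fold changes of -1.95, -1.31 and -1.03. The 3 skeletal muscle markers were Myl1, a myosin light chain (23.2 and 1.06 FPKM), the creatine kinase Ckm (5.30 and 0.691) and the embryonic myosin Myh3 (0.561 and 0.180). Myl1 and Ckm were also abundant in WT heart, at 112 and 223 FPKM, so they do not tell skeletal from heart muscle. Of 7 endothelium markers 0 were called and 1 had a p under 0.05.

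**Figure D4:**
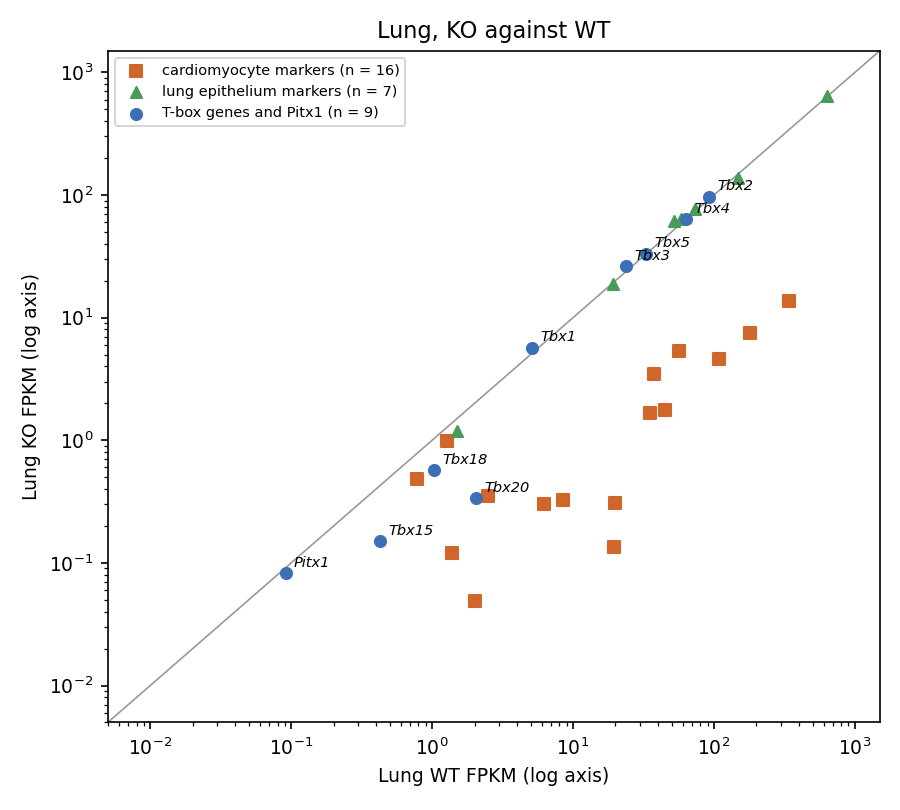
FPKM in lung of KO (vertical, log axis) against WT (horizontal, log axis) for the 9 genes, the cardiomyocyte markers and the lung epithelium markers above 0 in both genotypes; the line marks equal levels. Tbx2, Tbx4, Tbx5, Tbx3 and Tbx1 lie along the line, and Tbx20 lies below it among the cardiomyocyte markers; Nppa, listed at 0 in KO, is not drawn.

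The remaining T-box and Pitx genes were mostly under 1 FPKM. Of 11 such genes, 4 reached 1 FPKM in an organ, and none was called (6 were tested in hindlimb, 5 in heart, 3 in liver, 2 in lung). At an unadjusted p under 0.05 there was 1 in liver and 1 in lung. Mga, a large factor that joins a T-box to a helix-loop-helix domain, was found in all organs, with WT levels of 25.8 FPKM in hindlimb, 20.9 in heart, 20.8 in lung and 12.0 in liver. Pitx3 was at 5.28 and 3.96 FPKM in hindlimb, and Tbx6, a factor of the paraxial mesoderm, at 1.41 and 1.52 in liver.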

How the data were processed

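The 27 organ libraries were built from polyA RNA with a TruSeq v2 kit, as the labels' protocols state. CASAVA 1.8.2, TopHat2 and build mm10 are named in the submitters' processing notes. The program behind the tables is not given in the sources used. Per the file headers, the authors deposited 1 FPKM value per gene and genotype, pooled over libraries. They also deposited a log2 fold change and a test statistic (scores with no fixed range), a p-value and a q-value. The deposited log2 fold change was the ratio of both FPKM values for every tested gene described here as a T-box factor or Pitx1, within 1e-05, and Benjamini-Hochberg adjustment of the deposited p-values gave the q-values within 1e-06.

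A q-value under 0.05 was taken as a call. Low values were not filtered beyond the authors' own choice of tested genes. FPKM was also rescaled to a common sum or by the median of ratios over 10863 genes. Named were all 9 genes in all organs, other T-box and Pitx genes reaching 1 FPKM, of the partner lists the called genes and otherwise the 3 most abundant, the 2 most abundant markers of a tissue and the 3 genes nearest in pattern. A few genes that this rule picks are not reported here. Others named (Hand2, Nppa, Nkx2-1 as a lung marker, the muscle genes in lung, Ankrd1, Cldn18, Krt5, Krt15, Myl7 and the overlapping genes) were chosen after their values were seen. The Hox genes of the limb field list were also chosen in this way. Members and lists were chosen with earlier results of these data known. Adjustment and pattern search were tested on simulated data (Python 3.11.15, pandas 2.3.3, numpy 2.4.6, matplotlib 3.10.9). Of the 15 gene lists, 1 gene was not found in the tables. The reporter assay of the same series was not used here.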

Additional observations from a re-analysis of the deposited data

How the results depend on the processing

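Values per library were not used here, so no spread, leave-one-out value or litter block could be computed, and low depth cannot be separated from low expression for genes the authors did not test. No paired analysis was possible because the tables hold 1 value per organ and genotype. With an unadjusted p under 0.05, 3 of the 9 genes would count in hindlimb (Pitx1, Tbx18 and Tbx4) and 2 in lung (Tbx18 and Tbx20). The other 14 of 16 alternatives left the count of calls among the 9 within 1.5 times. Limb field genes numbered 2 in hindlimb at q under 0.10, and also 2 when adjusted over genes of at least 1 FPKM (Hand2 and Sall1), and 1 in liver at q under 0.10 (Prrx1). Cardiac partners in lung came to 1 (Hcn4) when adjusted over genes of at least 1 FPKM, since Bmp10 is below that level. All 96 alternatives of the 24 tested fold changes kept their direction. The Tbx20 log2 fold change in lung was -1.18 with a pseudocount of 1. The highest organ was the same in 17 of 18 rescalings. The exception was Tbx18, whose heart level was 1.10-fold above hindlimb by the median of ratios (the cause was not tested). With a pseudocount of 1, 8 of the 27 nearest genes were kept.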

Other observations

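For each of the 9 genes, those nearest to it over 8 values (4 organs, 2 genotypes) were found. Likeness was the root mean square difference of log2(FPKM + 0.1) after centring each gene on its mean, over 15622 genes that reach 1 FPKM. Nearest to Tbx20 were Bmp10 (0.90), Cpt1b, a mitochondrial fatty acid carrier enzyme, and Cox7a1, a respiratory chain subunit. Nearest to Pitx1 were Hoxa9 (0.73), a Hox gene of the posterior body, Gjb6, a gap junction gene, and Matn1, a cartilage matrix gene. Tbx15 lay nearest to Dmkn (0.31), 3110079O15Rik and the epidermal keratin Krt10, yet the genotype values of Krt10 and Tbx15 in hindlimb pointed opposite ways, 272 and 172 FPKM for Krt10 against 46.4 and 50.6 for Tbx15. Tbx3 had the smallest distance of all 9, to Otof (0.19), followed by Tcf7 and Gsg1. Otof was at 1.07 FPKM in WT lung and at most 0.216 in the other organs, so its distance depends on the pseudocount of 0.1. With a pseudocount of 1 the nearest to Tbx3 were instead Sema3e, Clic6 and Nr2f2. Tbx4 was matched by Mia (0.77), Wnt7b and Esrp1, Tbx2 by Muc1 (0.43), Slc27a6 and Sema3e, Tbx5 by Mgp (0.67) and Crh, Tbx18 by Thbs4 (0.37), Dpt and Klhl41, and Tbx1 by Bmp3 (0.36), Gm2301 and Grhl2. The 8 values of a gene share organs and pools, so these are descriptions.

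Gm2301, listed as an antisense transcript, starts across the start of Tbx3 (chr5:119611263-119671365, minus strand) and shares 115 exonic bases with it. It was at 25.6 FPKM in WT and 28.1 in KO lung, 7.75 and 9.49 in hindlimb, 0.690 and 0.464 in heart and 0.263 and 0.239 in liver, the organ order of Tbx3. D030062O11Rik lies opposite the start of Tbx18 (chr9:87729285-87732090, plus strand), shares 931 exonic bases with it and was at 2.38 FPKM in WT heart, 2.22 in hindlimb, 0.140 in lung and 0.00743 in liver. The sources used here do not state counting by strand, so reads in the shared bases cannot be told apart and the levels of both pairs are uncertain to that extent. Beside the Tbx2 and Tbx4 pair, 9530048J24Rik, also listed as antisense, was at 4.36 and 3.83 FPKM in lung and at most 0.322 in the other organs. Within 150 kb of the 9 genes lay 26 other genes, 17 of which reached 1 FPKM, and 0 were called in any organ. Of their 59 tested organ values, 0 had an unadjusted p under 0.05 in the authors' deposited tables. Over all tested genes, 0.228% to 0.707% were called in an organ and 2.79% to 5.97% had such a p. With shares this low, a count of 0 calls says little about these loci.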
